A study of Mus musculus with 12 samples.

Results

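The motile cilium axoneme genes were taken by symbol from polyadenylated RNA sequencing of mouse lung. All dynein heavy chain (Dnah), axonemal dynein intermediate and light chain (Dnai, Dnal), cilia and flagella associated (Cfap), radial spoke (Rsph), tektin (Tekt) and dynein regulatory complex (Drc) symbols followed by a number or letter entered, with Spag6, Spag6l, Spag16, Spag17, Hydin, Foxj1, Mcidas and Ccno. The rule found 76 of the 17920 genes listed. It used symbols and no expression value, although it was set with earlier results of these data known. The study divided 24 male BALB/c mice of 6 to 8 weeks at random into 4 groups of 6, and the lungs of 3 mice from each group were sequenced 14 days later. The labels name no agent for the control group. The LPS group received lipopolysaccharide, the endotoxin of Gram-negative bacteria, in a volume of 50 µL with 1 µg in each µL. The bLF group received bovine lactoferrin, a protein of milk that binds iron, with a daily dose of 200 mg/kg, and the LPS+bLF group received both agents. The labels call the LPS group a lung injury and give no route or day of LPS. Each library came from 1 mouse, and each sample was whole lung tissue, so fewer ciliated cells and less ciliary RNA per cell cannot be told apart in any value below.

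A motile cilium beats because dynein arms walk along a ring of doublet microtubules, the axoneme. Outer arms set beat frequency and inner arms set waveform, radial spokes and a central pair apparatus relay signals to the arms, and the nexin-dynein regulatory complex links neighbouring doublets. In the lung these genes are known from the multiciliated cells of the airways, which move mucus, and mutations in many of them cause primary ciliary dyskinesia. Multicilin (Mcidas) and cyclin O (Ccno) act early, when a cell multiplies its centrioles, and the forkhead factor Foxj1, with RFX factors that bind a palindromic promoter element named the X-box, switches on axonemal genes.

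Promoter windows were searched for the X-box because it is the sequence that many ciliary genes are known to share. RefSeq promoters on GRCm38.p6, each of 300 bases from 250 before a start to 50 after it, were found for 65 members, which had 72 windows, since some genes have several starts and such windows can overlap. Both strands were searched. The strict X-box, GTTNCC and GGNAAC with AT between them, was in 0 of the 72 windows and in 0.128% of all 32851 windows. With any 2 bases between these arms it was in 2 windows (2.78%, against 0.451% of all). A relaxed form, GTTNCC and GNAAC with any 3 bases between them, holds both stricter forms and was added after the first results were seen. It was in 8 windows of 8 members (11.1%, against 0.804% of all). The left arm alone, GTTGCC, also added afterwards and contained in many of the longer matches, was in 29 windows (40.3%, against 12.5%). Followed by AT, as GTTGCCAT, it was in 6 windows (8.33%, against 1.35%). The forkhead letters TGTTTAC were in 4 windows (5.56%, against 3.65%) and TGTTTGT in 2 (2.78%, against 6.61%). These are matches of letters and not shown to be bound sites. The 8 relaxed matches are printed 5′ to 3′ on the strand of the gene, with the 14 matching bases in capitals and 8 bases on either side. In Hydin, Tekt4, Cfap44 and Cfap45 only the reverse complement of the printed capitals has the relaxed form, since these matches lie on the other strand.
Hydin, chr8:110266948-110266977, plus strand: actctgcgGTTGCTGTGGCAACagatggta
Spag16, chr1:69826859-69826888, plus strand: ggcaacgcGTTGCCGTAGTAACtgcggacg
Tekt4, chr17:25471582-25471611, plus strand: tatacaatGTTCCTTAGGCAACcaggaacc
Cfap44, chr16:44394764-44394793, plus strand: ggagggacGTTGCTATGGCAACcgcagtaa
Cfap45, chr1:172521103-172521132, plus strand: gttcttggGTTGCTATGGTAACgcgtcagc
Cfap61, chr2:145934768-145934797, plus strand: gccgcgtcGTTTCCTTAGCAACtgtgtgcg
Cfap298, chr16:90935016-90935045, minus strand: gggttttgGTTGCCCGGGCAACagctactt
Cfap20dc, chr14:8666371-8666400, minus strand: gcccctcaGTTGCCTGGGCAACggctcagc
Of these 8 genes, 7 had their highest FPKM of the 12 libraries in control replicate 2, a library that recurs below. The exception was Cfap20dc, which had its lowest there (0.48 FPKM). By FPKM that library was also highest for 52 of the 64 members tested below, so 7 of 8 is near the share of the members at large.

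Total counts were alike, from 16714327 to 17820645 per library, so 3 counts corresponded to 0.168 to 0.179 CPM (counts scaled to library size). The members together held 0.0439 to 0.14% of a library's counts, the lowest share in LPS replicate 1 and the highest in control replicate 2. These were also the libraries that stood apart in other ways. In LPS replicate 1, 3067 genes were listed at 0, against 1499 to 1963 in any other library, and in control replicate 2 the club cell secretoglobin Scgb1a1 took 23.8% of counts, against 1.68 to 7.43% elsewhere. Defining lung markers were present in all 12 libraries, with the surfactant gene Sftpc at 43000.33 FPKM or more and Fam183b, a ciliated cell gene, at 13.51 FPKM or more. Of the 76 members, 64 reached 0.5 FPKM in at least 3 of the 12 libraries and were tested. The other 12 were Dnah7a, Dnah7b, Dnah7c, Dnah12, Dnah14, Dnah17, Hydin, Spag6, Cfap47, Cfap73, Cfap97d1 and Mcidas.

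Levels per length, as FPKM (fragments corrected for library size and for gene length), differed widely between the parts of the axoneme. In the gene paragraphs that follow, the highest and lowest libraries of a gene are by FPKM. Cfap126, also called Flattop, which helps to position basal bodies, had the highest mean over the 12 libraries at 78.8 FPKM. The radial spoke head genes Rsph1 (33.4 FPKM) and Rsph9 (32.5 FPKM) followed. The dynein heavy chains, which are the motors themselves, were far lower, and the highest of them was the inner arm chain Dnah6 at 2.01 FPKM. Median levels of the roles were 0.429 FPKM for inner arm heavy chains, 0.904 for central pair genes, 0.941 for outer arm heavy chains, 2.31 for the remaining Cfap genes, 6.29 for radial spokes, 6.93 for the dynein regulatory complex, 7.27 for intermediate and light chains and 8.60 for tektins. The dynein regulatory complex role holds only the genes with a Drc symbol, Drc1, Drc3 and Drc7. Genes of that complex with other symbols, such as Gas8, Ccdc65 and Iqca, are in another list below.

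Foxj1, the forkhead factor of motile ciliogenesis (gene ID 15223, chromosome 11, 116330704 to 116335499, GRCm38.p6), was at 8.87, 51.52 and 19.95 FPKM in control replicates 1, 2 and 3. It was at 5.71, 15.53 and 28.96 in LPS, 19.15, 14.49 and 24.75 in bLF, and 17.34, 10.44 and 11.69 in LPS+bLF. Control replicate 2 was the highest library and LPS replicate 1 the lowest, and the control libraries alone spanned nearly the whole range. Group means were 26.8 ± 22.1 in control, 16.7 ± 11.7 in LPS, 19.5 ± 5.14 in bLF and 13.2 ± 3.68 in LPS+bLF (SD, n = 3), and every group overlapped every other. Ccno, the cyclin of centriole amplification (gene ID 218630, chromosome 13, 112987802 to 112990778), varied much less, with 2.0, 3.37 and 2.64 FPKM in control, 2.68, 2.24 and 1.56 in LPS, 1.88, 2.52 and 2.75 in bLF, and 1.86, 2.02 and 1.24 in LPS+bLF. Mcidas, its neighbour 2802 bases away on the same chromosome, was nearly undetected, at 1 to 8 counts in the libraries.

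Outer arm heavy chains of airway cilia were highest in the same library as Foxj1. Dnah5, which lies along the whole length of the cilium and is often mutated in primary ciliary dyskinesia (gene ID 110082, chromosome 15, 28154854 to 28472045), was at 0.60, 1.58 and 0.72 FPKM in control, 0.54, 1.00 and 0.99 in LPS, 1.51, 0.72 and 1.02 in bLF, and 0.92, 0.88 and 0.81 in LPS+bLF. Control replicate 2 was again highest and LPS replicate 1 lowest, although bLF replicate 1 nearly reached the top. Dnah9, of the distal cilium, was at 1.63 FPKM in control replicate 2 and between 0.42 and 1.10 elsewhere, and Dnah11, of the proximal cilium, at 3.04 and between 0.81 and 2.37. Dnah8, better known from the sperm tail, went another way: it was highest in bLF replicate 2 at 1.76 FPKM and was at 0.81 in control replicate 2. Dnah17, another chain known from sperm, did not pass 0.03 FPKM in any library.

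Among the inner arm heavy chains, Dnah6 was at 1.24, 3.48 and 1.68 FPKM in control, 1.12, 1.74 and 1.72 in LPS, 2.68, 1.96 and 2.48 in bLF, and 2.03, 1.76 and 2.23 in LPS+bLF. Dnah3 ranged from 0.25 FPKM in LPS replicate 1 to 2.44 in control replicate 2. By FPKM both therefore had the same extremes as Foxj1. On the TMM-scaled CPM used further below, Dnah6 was instead lowest in control replicate 1. Dnah2 did not have these extremes: it was highest in LPS replicate 1, at 2.60 FPKM (375 counts). It was at 1.93 in control replicate 2 and 0.66 to 1.56 in the other 10 libraries. Dnah10, picked out after its values were seen, was at 1.05 FPKM in both of these libraries and at 0.39 to 0.68 elsewhere. Dnah7a, Dnah7b and Dnah7c are near-identical copies whose shared reads could have been split by the counting, and their single values are uncertain.

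Intermediate and light chains hold a dynein arm together at its base. Dnaic1, the older symbol of the outer arm intermediate chain Dnai1, was at 6.02, 12.30 and 6.76 FPKM in control, 1.05, 6.60 and 6.34 in LPS, 10.34, 8.15 and 9.33 in bLF, and 8.15, 5.53 and 6.64 in LPS+bLF. LPS replicate 1 lay far below all other libraries. Its partner Dnaic2 ranged from 2.99 FPKM in LPS replicate 1 to 11.44 in control replicate 2, and the inner arm light intermediate chain Dnali1 from 5.81 to 25.32 in the same libraries. Dnal1 and Dnal4, light chains, were also lowest in LPS replicate 1 (0.99 and 7.20 FPKM) but stood less far above the other libraries in control replicate 2 (1.94 and 22.77), and Dnal4 was highest in control replicate 3 (28.22).

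The radial spoke genes did not all share a pattern. Rsph1 was at 25.46, 56.43 and 27.21 FPKM in control, 15.95, 28.87 and 33.45 in LPS, 44.32, 32.07 and 27.62 in bLF, and 42.33, 26.37 and 41.08 in LPS+bLF. Rsph9, of the same spoke head, was at 24.74, 32.82 and 25.41 FPKM in control, 35.67, 36.81 and 28.66 in LPS, 42.24, 31.11 and 31.75 in bLF, and 37.07, 26.98 and 36.84 in LPS+bLF. Rsph1 spread more widely, and LPS replicate 1 was its lowest library, while for Rsph9 that library was above the mean. Rsph3a and Rsph3b, near-identical copies of a spoke stalk gene on chromosome 17, had fractional counts in several libraries, so how their reads were divided is uncertain. Rsph3b was at 0.40 FPKM in LPS+bLF replicate 3 and at 1.90 to 4.45 in the other 11 libraries.

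The 3 Drc genes and the tektins were highest in the same library as Foxj1, except for Tekt5. Drc3 ranged from 3.07 FPKM in LPS replicate 1 to 15.51 in control replicate 2, Drc7 from 3.25 to 10.39 and Drc1 from 4.92 to 10.33 in the same libraries. Tekt1, a filament protein of the doublet wall, was at 7.57, 27.91 and 11.43 FPKM in control, 7.41, 11.19 and 13.69 in LPS, 17.13, 15.90 and 15.22 in bLF, and 17.29, 10.30 and 13.41 in LPS+bLF. Tekt2 (3.11 to 10.22 FPKM), Tekt3 (0.00 to 0.81) and Tekt4 (8.30 to 25.87) were highest in control replicate 2 as well. Tekt5, known mainly from sperm, was at 10.10, 7.01 and 10.33 FPKM in control, 4.81, 7.99 and 6.99 in LPS, 8.78, 9.18 and 7.39 in bLF, and 9.16, 7.79 and 13.62 in LPS+bLF, with its highest value in LPS+bLF replicate 3 and its lowest in LPS replicate 1.

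Central pair genes stood furthest apart from the rest in control replicate 2, as the role medians below show. Hydin, a giant central pair protein whose promoter match is printed above (gene ID 244653, chromosome 8, 110266968 to 110610253), was at 0.09, 1.02 and 0.32 FPKM in control, 0.08, 0.18 and 0.53 in LPS, 0.41, 0.21 and 0.37 in bLF, and 0.28, 0.23 and 0.12 in LPS+bLF. Its highest library was 4.43 times the median of the other 11, on 153 counts. Spag6l, another central pair gene, picked out here for its spread, had 172 counts in control replicate 2 and 1 in LPS replicate 1. Spag6l has a near-identical copy, Spag6, listed at 0.16 FPKM or less. Cfap69 ranged from 1.28 FPKM in LPS replicate 1 to 7.13 in control replicate 2, and Cfap74 from 0.68 to 4.98 in the same libraries. Cfap221 ranged from 0.64 in LPS+bLF replicate 2 to 4.62 in control replicate 2. Of the remaining Cfap genes, Cfap126 was at 59.93, 143.51 and 73.37 FPKM in control, 31.53, 84.95 and 75.91 in LPS, 88.14, 79.50 and 87.63 in bLF, and 89.21, 62.06 and 70.03 in LPS+bLF. Cfap298, a dynein assembly factor, ranged from 20.20 FPKM in LPS replicate 1 to 41.15 in control replicate 2, and Cfap20, of the inner doublet wall, from 9.97 to 41.17 in the same libraries.

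**Figure D1:**
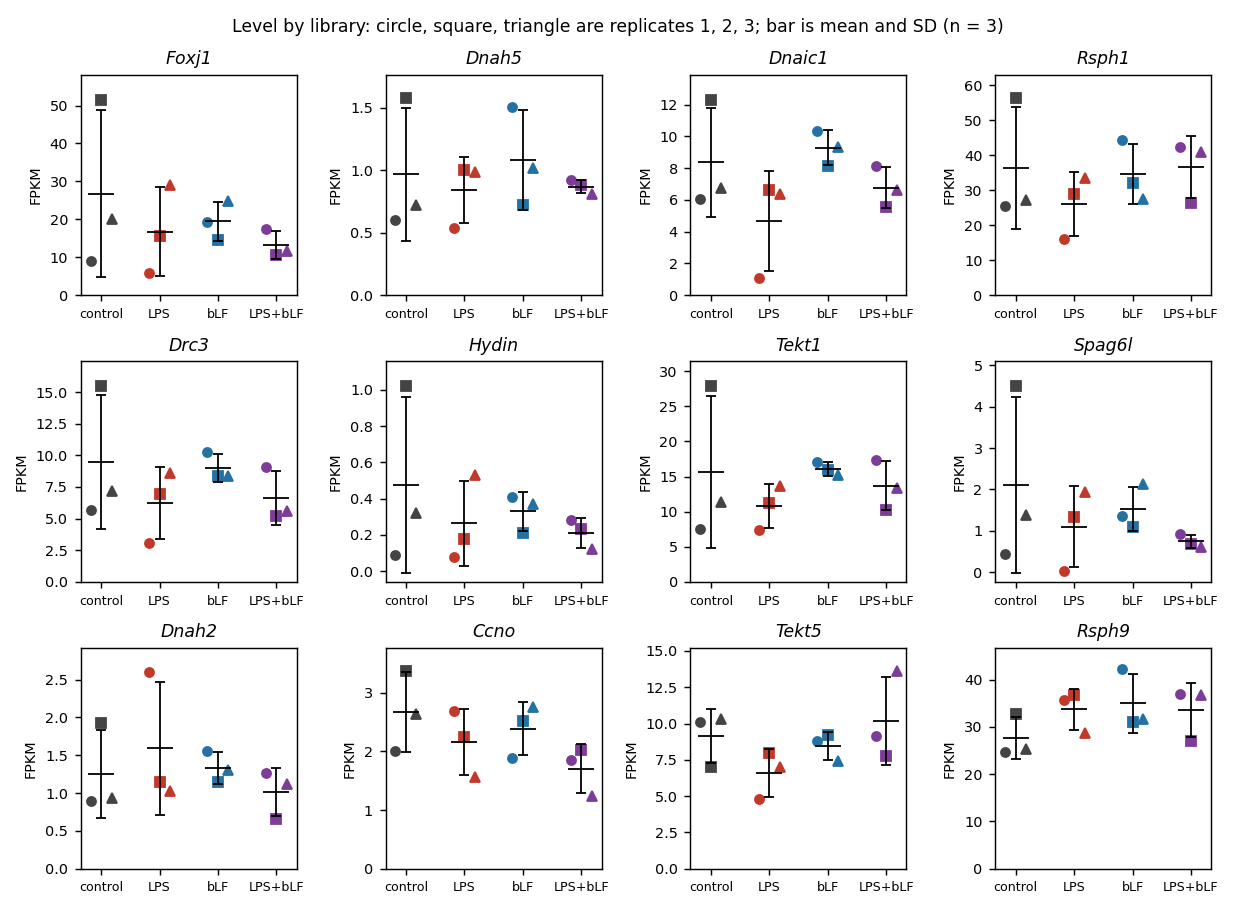
FPKM of 12 axoneme genes in each library (vertical axes, FPKM, each from 0 or just below). Circles, squares and triangles are replicates 1, 2 and 3 of the 4 groups on the horizontal axes, and bars give the mean and SD (n = 3). Foxj1 reaches 51.52 FPKM in control replicate 2 and 5.71 in LPS replicate 1, while Ccno, Rsph9 and Tekt5 spread less and Dnah2 is highest in LPS replicate 1.

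The axoneme genes thus varied with single libraries. On the log2 scale of TMM-scaled CPM, relative to each gene's mean over the 12 libraries, control replicate 2 had a median of 1.10 over the 64 tested members and was the highest library for 54 of them (84.4%, against 19% of all 13735 tested genes). Its FPKM was 1.96 times the median of the other 11 libraries for the median member, and at least 2 times for 27 members. All 8 tested central pair genes were highest there (median 1.60), as were 23 of 26 remaining Cfap genes (1.12), 4 of 5 tektins (1.13), 4 of 5 intermediate and light chains (1.04), all 3 Drc genes (1.01), 3 of 5 inner arm (0.97) and 3 of 4 outer arm heavy chains (0.96), and 4 of 6 radial spoke genes (0.92). Of the 10 members highest elsewhere, 6 were so in LPS replicate 1 (9.38% of the 64, against 28.2% of all tested genes). These were Cfap20dc, Cfap97, Cfap410, Dnah2, Dnah10 and Rsph9. Dnal4 and Rsph3b were highest in control replicate 3, Dnah8 in bLF replicate 2 and Tekt5 in LPS+bLF replicate 3. FPKM lack the TMM scaling, so a highest library can differ between the scales (Rsph9 was highest in bLF replicate 1 by FPKM), and by FPKM control replicate 2 was highest for 52 of the 64.

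The low end was divided between LPS replicate 1, lowest for 30 members (46.9%, against 34.9% of all tested genes), and control replicate 1, lowest for 17 (26.6%, against 5.58%), on TMM-scaled CPM. By FPKM the division was different, with LPS replicate 1 lowest for 43 of the 64 and control replicate 1 for 9. Dnah5, Dnah6, Tekt1 and Cfap298, lowest in LPS replicate 1 by FPKM, were lowest in control replicate 1 on scaled CPM. Drc1 and Drc7 were then lowest in control replicate 3, and Cfap20 in LPS+bLF replicate 3. In control replicate 1 the members were close together, with a median of −0.56 and quartiles of −0.87 and −0.40, and 58 of 64 lay below their own mean. LPS replicate 1 had a median of −0.65 but an interquartile range of 1.09, from −3.55 for Spag6l to 1.34 for Dnah2. The same range over all tested genes was 1.19 in this library and at most 0.64 in the other 11, so the scatter of the members in LPS replicate 1 was shared with genes at large. The other 9 libraries had member medians between −0.29 (LPS+bLF replicate 2) and 0.28 (bLF replicate 1).

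**Figure D2:**
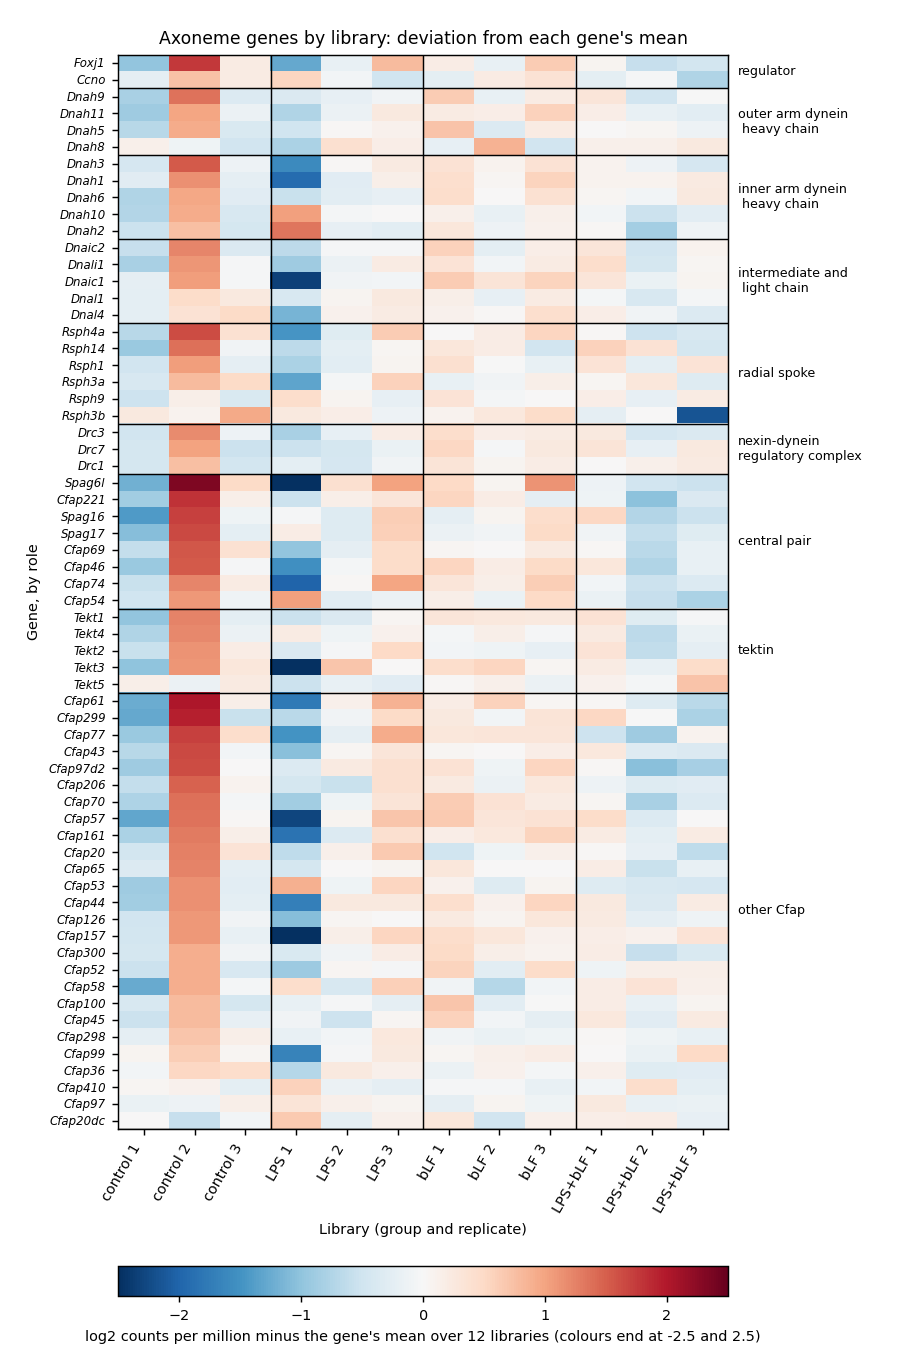
Heat map of the 64 tested axoneme genes (rows, grouped by role) in the 12 libraries (columns), as log2 CPM minus each gene's mean over the libraries. Red is above and blue below the mean, and colours end at −2.5 and 2.5. The control replicate 2 column is red for most rows (median 1.10), control replicate 1 is blue (median −0.56) and LPS replicate 1 is mixed, with a median of −0.65.

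When control replicate 2 and LPS replicate 1 were set aside, on the same scaled CPM, control replicate 1 was the lowest of the remaining 10 libraries for 40 of the 64 members (62.5%, against 11.2% of all tested genes). The top was then shared by bLF replicate 1, highest for 22 (34.4%, against 6.62%), LPS replicate 3, highest for 18 (28.1%, against 15.4%) and bLF replicate 3, highest for 9 (14.1%, against 9.49%). These counts describe single mice and not treatments.

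Other genes of ciliated cells were taken from lists of known function. Of 42 tested ciliated cell genes outside the axoneme rule, 40 were highest in control replicate 2 (list median 1.26) and their medians were −0.72 in control replicate 1 and −0.89 in LPS replicate 1. Fam183b was at 34.99, 245.03 and 74.34 FPKM in control and at 13.51, 65.57 and 97.64 in LPS. Dynein preassembly factors, which fold the motors in the cytoplasm, were highest in control replicate 2 for 12 of 15 tested genes (median 0.75), among them Dnaaf3 at 10.33 FPKM against 1.43 to 8.50 elsewhere. The list of docking complex and axonemal ruler genes, which place the arms, also held dynein regulatory complex genes. These were Ccdc65, Gas8, Iqca and the untested Tcte1, and Gas8 was at 21.08 FPKM in control replicate 2 but 28.37 in LPS replicate 2. Of the 9 tested genes of this list, 7 were highest in control replicate 2 (median 1.02), among them Armc4 at 2.08 FPKM against 0.36 to 0.94. Intraflagellar transport genes, which primary cilia of other cells also use, were highest there for 15 of 28, with a median of only 0.33. Multiciliation and ciliary transcription genes were highest there for 7 of 13 (median 0.59). In this list the cell cycle factor E2f5 reached 8.12 FPKM and its relative E2f4 did not stand out (30.97, within a range of 16.07 to 38.22).

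Markers of other airway and lung cells also differed between these libraries. Club cell markers had a median of 0.86 in control replicate 2 and −0.92 in control replicate 1, with 3 of 10 highest in the former. Summed over the list their FPKM was 118000, 1060000 and 273000 in control, 76200 to 291000 in LPS, 268000 to 338000 in bLF and 149000 to 244000 in LPS+bLF, and no club cell marker among Scgb1a1, Scgb3a2 and Cyp2f2 was near 0. Most of each sum was Scgb1a1, at 114066.94, 1056141.44 and 268221.13 FPKM in control, so the sums largely describe that gene. Scgb3a1 was lowest in control replicate 2 (37.61 FPKM). In LPS replicate 1 the club cell median was 0.50, but Scgb1a1 and Cyp2f2 were at their lowest there (68088.51 and 245.33 FPKM). All 8 alveolar type 2 markers were lowest in LPS replicate 1 (median −1.38), and 1 of 8 was highest in control replicate 2, where the median was −0.19. Their summed FPKM was 76100 to 139000 in control, 46200 to 181000 in LPS, 78300 to 128000 in bLF and 64700 to 143000 in LPS+bLF. Goblet and gland markers summed to 2.43 to 15.9 FPKM in control and to 293 in bLF replicate 1, and the goblet mucin Muc5ac stayed at 0.16 or less. Brown fat markers, with Ucp1 as the defining gene, summed to 1440 FPKM in LPS+bLF replicate 2, to 920 in control replicate 1 and to 684 in bLF replicate 1, against 5.4 to 116 in the other 9 libraries. Basal and squamous markers summed to 822 FPKM in LPS+bLF replicate 3 and to 14.8 or less elsewhere, with Krt5 listed at 0 in 7 libraries. Testis and sperm tail markers summed to 9.47 to 22.8 FPKM per library, almost all of it Odf2, and ependyma and choroid plexus markers to 22.8 to 66.5, almost all of it Tmem212. Neuroendocrine markers summed to 11.9 to 29.3, leukocyte markers to 179 to 600, smooth muscle to 356 to 1150, endothelium to 784 to 1740 and alveolar type 1 to 4410 to 9080 FPKM. Skeletal muscle markers summed to 3060 FPKM in LPS+bLF replicate 3 and to 4.27 to 178 elsewhere. The part of these cell types in the axoneme values was not tested.

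**Figure D3:**
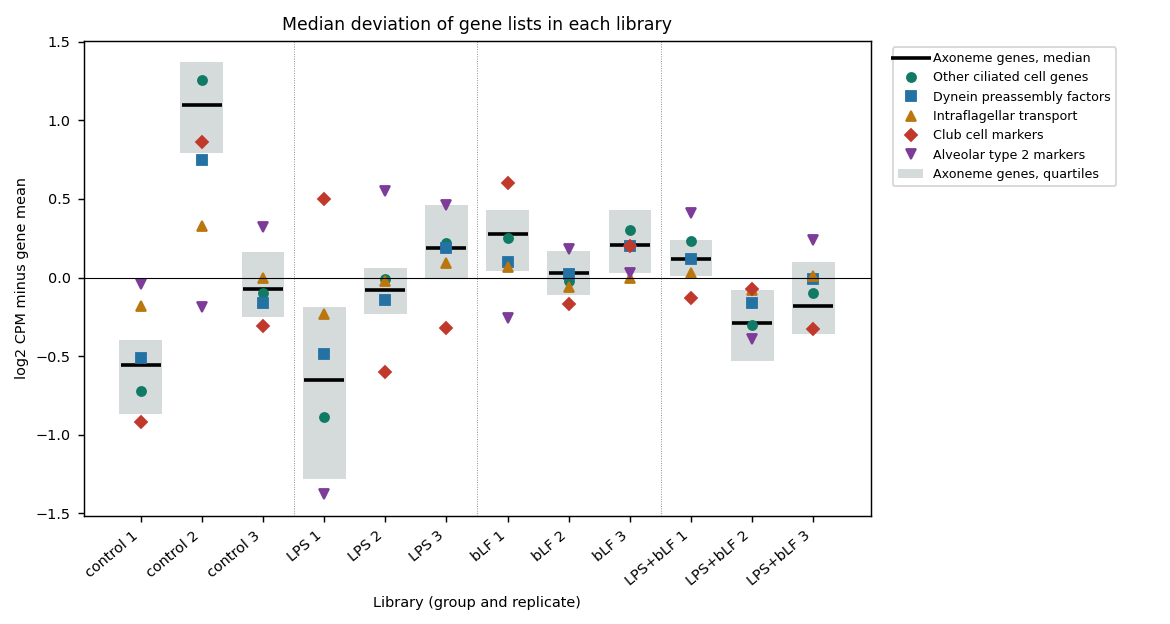
Median deviation of gene lists in each library (vertical axis, log2 CPM minus each gene's mean over 12 libraries; horizontal axis, library). Grey boxes span the quartiles of the 64 axoneme genes, black bars are their medians, and symbols are medians of 5 other lists. Axoneme genes (1.10), other ciliated cell genes (1.26) and club cell markers (0.86) are all high in control replicate 2, while alveolar type 2 markers are at −0.19 there.

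LPS versus control asked how the lung differed after LPS alone. None of the 64 tested members was called by edgeR's quasi-likelihood test at a Benjamini-Hochberg adjusted p under 0.05, where 0% of the 13735 tested genes were called, and the smallest adjusted p of a member was 0.684. None had an unadjusted p under 0.05 (980 of all genes did, 5.52% upwards and 1.62% downwards), and DESeq2 and limma called 0 members too, although DESeq2 called 138 of all genes and limma on log2(FPKM + 1) called 2. The fitted mean was lower in LPS for 54 members and higher for 10, where 54.2% of all genes were lower and 45.8% higher. Their median log2 fold change was −0.46 (−0.04 over all genes). Foxj1 had a log2 fold change of −0.75 ± 0.63, Dnaic1 −0.90 ± 0.50, Dnah3 −0.86 ± 0.53, Cfap69 −0.85 ± 0.49 and Rsph9 0.35 ± 0.23 (SE, 3 mice per group). Whether groups overlapped was judged on TMM-scaled CPM in all comparisons. On that scale only Tekt5 had all LPS libraries below all control libraries (log2 fold change −0.42 ± 0.22), while its FPKM overlapped (7.99 in LPS replicate 2, 7.01 in control replicate 2), a pattern on scaled CPM that 4.59% of all tested genes showed. No member lay entirely above (4.87% of all genes).

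That lower fitted mean rested on control replicate 2. Without that library the median was 0.21, 52 members were higher and 12 lower, and 42 had changed sign, while without control replicate 1 the median was −0.76. Without LPS replicate 1 it was −0.33, and without both control replicate 2 and LPS replicate 1 it was 0.40, with 58 members higher. Foxj1 went from −0.75 to 0.28 without control replicate 2, Dnah9 from −0.60 to 0.36 and Tekt1 from −0.57 to 0.31, whereas Dnaic1 (−0.40) and Tekt5 (−0.52) stayed negative and Rsph9 (0.57) stayed positive. In all of these fits 0 members were called, so neither direction passed the test.

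bLF versus control asked how the lung differed after lactoferrin alone. No member was called by edgeR (0% of all genes called), none had an unadjusted p under 0.05 (189 of all genes did, 0.714% upwards and 0.663% downwards), and DESeq2 and limma called 0 members. The fitted mean was lower in bLF for 48 members and higher for 16 (54.6% of all genes were lower and 45.4% higher), with a median of −0.13. On limma's log2(FPKM + 0.1) scale, which averages log values, the median was 0.01 with 34 higher. No member had groups that did not overlap, which 4.34% of all genes did upwards and 4.57% downwards. Without control replicate 2 the median was 0.55, with 57 members higher. Without control replicate 1 it was −0.43, with 61 lower. Dnah5 was at 0.13 ± 0.40 and Dnaic1 at 0.13 ± 0.49, and Cfap298 at −0.38 ± 0.21 had the smallest unadjusted p (0.102, edgeR).

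In LPS+bLF versus control the members again had 0 calls (0% of all genes by edgeR). By edgeR 0 had an unadjusted p under 0.05 (660 of all genes did, 2.63% upwards and 2.18% downwards). DESeq2 called none of the members and put 2 of them under that unadjusted p, with no share of all genes at hand beside them. The median was −0.36, with 56 lower and 8 higher, where 49.7% of all genes were lower and 50.3% higher. Central pair genes were furthest down, with all 8 lower and a median of −0.87. Cfap221 stood at −1.26 ± 0.60, Cfap69 at −0.95 ± 0.49 and Foxj1 at −1.06 ± 0.64, and these became −0.18, −0.21 and −0.03 without control replicate 2. The median of all tested members was 0.21 in that fit. Rsph3b alone had groups that did not overlap (−1.03 ± 0.49), which 5.74% of all genes did in this direction and 6.65% in the other. These 3 comparisons share the control libraries, so their values are set side by side and are not independent.

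LPS+bLF versus LPS asked whether lactoferrin changed the LPS lung. The members were split evenly, with 32 higher and 32 lower (47.9% and 52.1% of all genes) and a median of −0.02 (−0.02 over all genes), 0 calls by edgeR, DESeq2 and limma, and 0% of all genes called by edgeR. Only Tekt5 had an unadjusted p under 0.05 (950 of all genes did, 3.27% upwards and 3.65% downwards). It was at 6.60 ± 1.63 FPKM in LPS and 10.2 ± 3.05 in LPS+bLF (SD, n = 3), a log2 fold change of 0.64 ± 0.22 with an adjusted p of 0.689 by edgeR. The roles leaned in different ways. The Drc genes (3 of 3 higher, median 0.36), tektins (3 of 5, 0.31) and intermediate and light chains (4 of 5, 0.22) were on the higher side. Outer arm (4 of 4, 0.11) and inner arm heavy chains (3 of 5, 0.11) were so by less. Of the regulatory complex genes with other symbols, Ccdc65 was at 0.57 ± 0.33, Iqca at 0.05 ± 0.50 and Gas8 at −0.22 ± 0.22. Central pair genes (7 of 8 lower, −0.45) and both tested regulators (Foxj1 −0.31 ± 0.63, Ccno −0.38 ± 0.37) were on the lower side. Radial spokes (3 of 6 higher, 0.02) and the remaining Cfap genes (11 of 26 higher, −0.05) were near 0. On scaled CPM, non-overlapping groups were seen for Dnah6 (0.41 ± 0.36), Drc1 (0.36 ± 0.30) and Tekt5 upwards, as for 4.99% of all genes, and for Cfap53 (−0.92 ± 0.51) and Dnah10 (−0.70 ± 0.43) downwards, as for 5.19%. By FPKM the Tekt5 groups overlapped and the other 4 did not. Without LPS replicate 1 the median of all tested members was −0.18, with 43 lower. Tektins (2 of 5 higher, −0.16), outer arm (1 of 4 higher, −0.11) and inner arm heavy chains (2 of 5 higher, −0.02) then changed sides. So did radial spokes (3 of 6 higher, −0.07). In that fit intermediate and light chains were at 0.02, regulatory complex genes at 0.37 and central pair genes at −0.47, with all 8 of the last lower.

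In LPS+bLF versus bLF, which asked for the LPS difference among lactoferrin-treated mice and shares no library with control, 53 members were lower and 11 higher (48% of all genes were lower and 52% higher), with a median of −0.24. No member was called by edgeR, DESeq2 or limma (0% of all genes by edgeR), and 0 had an unadjusted p under 0.05 (366 of all genes did, 1.65% upwards and 1.02% downwards). The median stayed between −0.41 and −0.14 whichever single library was left out. On scaled CPM, groups did not overlap for 7 members downwards, as for 6.53% of all genes, and these were Cfap61, Cfap70, Cfap74, Cfap77, Dnaic1, Rsph3b and Spag6l. By FPKM, Cfap61 overlapped and Dnaic1 tied at 8.15, while the other 5 were still apart. The largest of these differences were −1.05 ± 1.12 for Cfap77 and −1.05 ± 1.00 for Spag6l. Cfap58 (0.50 ± 0.50) was the 1 member with LPS+bLF entirely above bLF, as were 6.1% of all genes.

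The interaction, the bLF difference with LPS minus that without, had a median of 0.21 over the members, with 44 positive and 20 negative (52.6% of all genes were positive and 47.4% negative). No member was called (0% of all genes by edgeR, and 0 members by DESeq2 and limma), and 1 had an unadjusted p under 0.05 (384 of all genes did, 1.26% positive and 1.54% negative), Tekt5 at 0.72 ± 0.31. The median was −0.44 without control replicate 2, with 57 members negative.

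**Figure D4:**
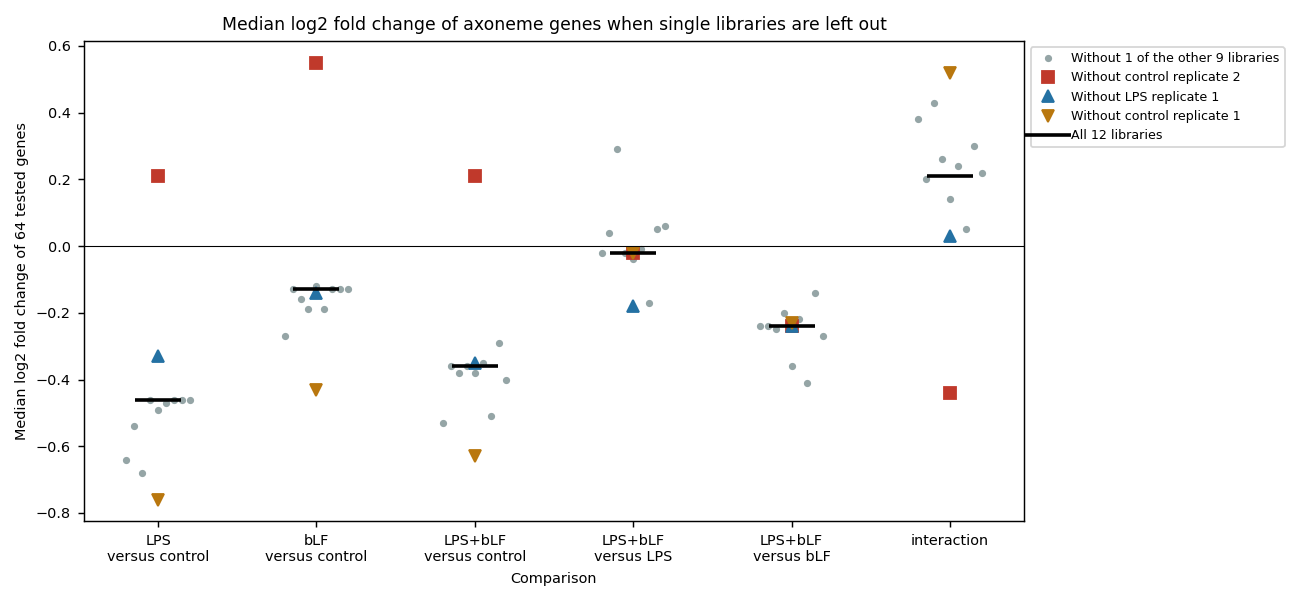
Median log2 fold change of the 64 tested axoneme genes (vertical axis) in 6 comparisons (horizontal axis). The black bar is the fit with all 12 libraries and the symbols are fits with 1 library left out. Leaving out control replicate 2 moves LPS versus control from −0.46 to 0.21 and the interaction from 0.21 to −0.44, whereas LPS+bLF versus bLF stays between −0.41 and −0.14.

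Across the 12 libraries, single genes were compared with Foxj1 on the log2(FPKM + 0.1) scale, 12 relations in all, with two-sided permutation tests and Benjamini-Hochberg adjustment. Hydin followed Foxj1 most closely, with Pearson's r = 0.95 (permutation p = 1e-05, the smallest that the resamples can give, adjusted 0.00012) and Spearman's rho = 0.93 (permutation p = 6e-05, adjusted 0.00072). Without LPS replicate 1 and control replicate 2, the libraries farthest from the Foxj1 median, r was 0.90. Hydin was under the filter, at 0.08 to 1.02 FPKM on 14 to 153 counts, so its lowest values lie near the added 0.1. Spag17, of the central pair, had r = 0.82 (permutation p = 0.00142, adjusted 0.00406) and rho = 0.69 (permutation p = 0.0165, adjusted 0.0283), and r was 0.95 without those libraries. Tekt1 had r = 0.85 (permutation p = 0.00087, adjusted 0.00348) and rho = 0.72 (permutation p = 0.0103, adjusted 0.0247), and 0.61 without them.

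The dynein genes were weaker without the extreme libraries. Dnah9 had r = 0.81 (permutation p = 0.00169, adjusted 0.00406) and rho = 0.73 (permutation p = 0.00986, adjusted 0.0247), with r = 0.59 without them. Dnah5 had r = 0.79 (permutation p = 0.00215, adjusted 0.0043) and rho = 0.76 (permutation p = 0.00608, adjusted 0.0243), with r = 0.53. Dnaic1 had r = 0.75 (permutation p = 0.00407, adjusted 0.00698) and rho = 0.71 (permutation p = 0.0126, adjusted 0.0252), with r = 0.49.

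For Rsph1 (r = 0.73, permutation p = 0.00939, adjusted 0.0141, and rho = 0.63, permutation p = 0.0314, adjusted 0.0471) and Drc1 (r = 0.62, permutation p = 0.0326, adjusted 0.0435, and rho = 0.46, permutation p = 0.134, adjusted 0.179) the relation rested on those libraries, since r was 0.21 and 0.10 without them. Ccno (r = 0.26, permutation p = 0.416, adjusted 0.453, and rho = 0.19, permutation p = 0.555, adjusted 0.666) and Mcidas (r = 0.34, permutation p = 0.281, adjusted 0.337, and rho = 0.13, permutation p = 0.683, adjusted 0.683) showed no detectable relation with Foxj1, with r = 0.19 and −0.07 without them. Scgb1a1, of club cells and no ciliary gene, had r = 0.91 (permutation p = 0.00018, adjusted 0.00108) and rho = 0.85 (permutation p = 0.00075, adjusted 0.0045), and r = 0.74 without them. Krt5, of basal cells, had r = −0.18 (permutation p = 0.548, adjusted 0.548) and rho = −0.15 (permutation p = 0.65, adjusted 0.683), and r = −0.30. All 12 libraries enter each of these values, and the 4 groups were not separated.

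The pathway lists were compared in the same fits. In LPS versus control 0 genes of any list were called (0% of all genes). The ciliated cell genes outside the rule had 38 of 42 lower (median −0.55, and 0.24 without control replicate 2), preassembly factors 12 of 15 lower (−0.33, and 0.19), the docking and ruler list 8 of 9 lower (−0.35, and 0.22), and multiciliation genes 9 of 13 lower (−0.35, and 0.12). Intraflagellar transport genes had 19 of 28 lower with a median of −0.17, and −0.02 without control replicate 2. In the same comparison the genes placed first in each list had these log2 fold changes (± SE). Preassembly factors were at 0.03 ± 0.38 (Dnaaf1), −0.06 ± 0.22 (Dnaaf2) and −0.31 ± 0.53 (Dnaaf3). Docking genes were at −0.05 ± 0.28 (Ccdc114), −1.17 ± 0.61 (Armc4) and −0.14 ± 0.40 (Ccdc151). E2f4 was at −0.21 ± 0.21 and E2f5 at −0.71 ± 0.58, and Gmnc was not tested. Ift20 was at 0.33 ± 0.27, Ift22 at −0.24 ± 0.20 and Ift27 at 0.17 ± 0.16. Tmem212 was at −0.32 ± 0.37, Fam183b at −1.08 ± 0.71 and 1110017D15Rik at −0.60 ± 0.48. In LPS+bLF versus LPS the medians of the 5 lists lay between −0.05 and 0.17. Club cell markers had a median of 0.01 in LPS versus control (5 higher, 5 lower) and of 0.55 without control replicate 2. That median covers single values far from 0 in both directions. Scgb1a1 was at −1.70 ± 0.76 and Cyp2f2 at −1.31 ± 0.64, while Scgb3a2 was at 0.76 ± 0.54 and Scgb3a1 at 3.37 ± 1.75. By edgeR, 1 of the 10 had an unadjusted p under 0.05, downwards (1.62% of all genes), and 0 were called.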

How the data were processed

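Expression was measured by sequencing polyadenylated RNA from 12 lungs, 3 mice in each of 4 groups. Per the submitters' processing notes, HISAT2 2.1.0, RSEM 1.2.8 and the build mm10 were used, and their roles are not given in the sources used here. Per the file headers, each deposited file holds a count and an FPKM per gene. The deposited counts were read as RSEM expected counts, because in each library a share of genes (4.12 to 5.91%) had a fractional value. The FPKM the authors deposited are scaled to gene length and library size. Strandedness and annotation are not given in the sources used here.

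Counts were rounded, and genes at 0.5 FPKM or more in at least 3 of 12 libraries were kept (13735). edgeR 4.0.16 (R 4.3.3) fitted 4 group means with TMM scaling and 8 residual degrees of freedom, by two-sided quasi-likelihood tests with Benjamini-Hochberg adjustment over all 13735 genes. A gene was called at an adjusted p under 0.05, and ± after a log2 fold change is its SE. Alternatives were DESeq2 1.42.0, limma 3.58.1 on log2(FPKM + 1) and log2(FPKM + 0.1), other filters, upper-quartile scaling, only the groups compared, a replicate block and each library left out. Deviations used log2 CPM with a prior count of 2. Correlations used 100000 permutations. The fits were checked on simulated data, in which many true changes were missed, so 0 calls do not show that a gene was unchanged. A floor of 3 counts covers counting error only. The members, lists and tests were chosen with earlier results of these data known. Symbols matched RefSeq (GRCm38.p6) by gene ID for 17869 of 17920 genes and for all 76 members.

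Named members were the 3 highest by mean FPKM in each role (all in roles of 5 or fewer), Foxj1, Hydin, Mcidas and Ccno, any called member, and the 2 of smallest unadjusted p upwards and downwards per comparison, 40 in all. Others were picked after their values were seen, for an extreme value, for groups that did not overlap or for a promoter match.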

Additional observations from a re-analysis of the deposited data

How the results depend on the processing

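With all 12 libraries edgeR called 0 genes in each comparison, and no setting run called an axoneme gene. Over all genes, DESeq2 called 138 in LPS versus control, 7 in LPS+bLF versus LPS, 1 in bLF versus control, 12 in LPS+bLF versus control, 2 in LPS+bLF versus bLF and 1 in the interaction. limma on log2(FPKM + 1) called 2 in LPS versus control. Leaving out single libraries gave 0 to 25 genes in LPS versus control (25 without LPS replicate 1), 0 to 2 in LPS+bLF versus LPS, and 0 in the other 4 comparisons. Without both control replicate 2 and LPS replicate 1, an alternative chosen after seeing the data, 1 gene was called in LPS versus control.

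The median log2 fold change of the 64 members ranged over single libraries left out from −0.76 to 0.21 in LPS versus control, −0.43 to 0.55 in bLF versus control, −0.63 to 0.21 in LPS+bLF versus control, −0.18 to 0.29 in LPS+bLF versus LPS, −0.41 to −0.14 in LPS+bLF versus bLF and −0.44 to 0.52 in the interaction. Without control replicate 2 it was 0.21, 0.55 and 0.21 in the 3 comparisons with control and −0.44 in the interaction. Without control replicate 2 and LPS replicate 1 it was 0.40 in LPS versus control, 0.55 in bLF versus control, 0.21 in LPS+bLF versus control and −0.61 in the interaction. Fewer control mice enter these fits, and the cause of the change in sign was not tested. Other settings moved a median by less than 0.49, the SD of library medians within groups. Single values of the named genes that were tested moved by more than their SE in 225 of 4511 cases. These cases include fits that leave out a library of a group not compared, so the count understates the part of control replicate 2.

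The labels state no pairing by replicate number. Of 18 same-numbered pairs, 5 had correlated deviations (r over 0.1), and r ranged from −0.69 to 0.57. These values cannot show whether samples were paired, since the deviations within a group depend on each other. With a replicate block the medians were −0.44 in LPS versus control, 0.05 in LPS+bLF versus LPS, −0.06 in bLF versus control, −0.32 in LPS+bLF versus control, −0.23 in LPS+bLF versus bLF and 0.19 in the interaction, and 0 members were called. The 12 members under the filter were not tested, and Mcidas, at 1 to 8 counts, is too shallow to compare at this depth.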
